A study of Homo sapiens with 6 samples.

Results

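A set of 34 genes around MYC and ribosome biogenesis was followed in HG3 cells, a human lymphoblastoid cell line of B lineage used as a model of chronic lymphocytic leukaemia. The genes are MYC, MAX and known MYC targets and factors of ribosome production, picked by symbol, and all 34 were found among the 23619 symbols of the 6 files. Each library came from total RNA of 1 pool of cells: fludarabine-resistant pools 17, 18 and 28, and control pools 17, 18 and 28. The sample titles call the resistant libraries treated and the others control. Treatment and resistance therefore cannot be told apart here. Fludarabine is a purine nucleoside analogue used against this leukaemia. The design speaks of 3 pairs of pools and asked whether resistant cells differ globally from their parental cells. The title names transposon mutagenesis, in which a mobile element inserts at random and alters genes. The labels give neither the drug dose, nor the length of selection, nor which pools carry insertions, and whether pools were separate cultures from the start is not stated, so p-values measure only the spread between these libraries. All pools come from 1 cell line. In such bulk RNA, fewer cells that express a gene and less of its RNA per cell cannot be told apart.

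MYC is a transcription factor that pairs with MAX and binds E-boxes, short DNA elements with the core CACGTG. Among the genes it is best known for are those that build ribosomes: RNA polymerase I transcribes ribosomal RNA in the nucleolus, small nucleolar ribonucleoproteins (snoRNPs) guide its chemical modification, and the processome and assembly factors cut it and fold it into the small and large subunits. In B cell lymphomas and in B cells driven by Epstein-Barr virus, MYC is a central growth regulator.

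The core CACGTG was searched in the RefSeq promoter windows of the genes (GRCh38.p14, 250 bases before to 50 after a start). The motif reads the same on both strands. Of the 34 genes, 28 matched the table (NOP58, NOLC1, MYC, RRS1, BOP1 and RRP12 did not), and 12 of these had at least 1 CACGTG. This was 42.9% of the matched genes, against 13.4% of the 8143 tested genes that matched and 8.77% of all 27305 genes of the table. Of all 35116 windows 7.26% held it, and a gene can have more than 1 window. The genes were picked in part as known MYC targets, so a higher share can follow from that choice. The 7 examples that also belong to the genes described in full below are shown because they cover opposite differences: GNL3, NOC3L, GAR1, RRP9 and NOP2 had positive mean differences in resistant libraries, SRM and UTP20 negative ones. Capitals mark the CACGTG, and each line has 30 bases of the gene's own strand.

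GNL3: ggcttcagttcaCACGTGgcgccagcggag
NOC3L: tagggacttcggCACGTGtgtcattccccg
GAR1: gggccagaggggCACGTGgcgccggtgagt
RRP9: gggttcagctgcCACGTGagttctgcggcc
NOP2: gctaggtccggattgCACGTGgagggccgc
SRM: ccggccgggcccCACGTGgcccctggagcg
UTP20: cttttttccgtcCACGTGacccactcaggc

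The GNL3 stretch lies at chr3:52686026-52686055 on the plus strand, with the first base of its motif at position 7 counted from the start. In NOC3L (chr10:94362903-94362932, minus strand) the motif begins at position 20, in GAR1 (chr4:109815781-109815810, plus strand) at position 32, and in NOP2 (chr12:6568242-6568271, minus strand) at position 36. It begins 5 bases before the start in RRP9 (chr3:51941892-51941921, minus strand), 10 before it in UTP20 (chr12:101280083-101280112, plus strand) and 199 before it in SRM (chr1:11060200-11060229, minus strand). The 12 genes with the motif had a median log2 difference of 0.48 between resistant and control libraries (range -0.99 to 0.87), and the 16 matched genes without it 0.09 (range -0.31 to 0.99). Both ranges reach above and below 0. Among genes with the motif and a negative mean, SRM differed by -0.99 (SE 0.21). UTP20 (-0.13, SE 0.23), FBL (-0.07, SE 0.22) and ODC1 (-0.05, SE 0.39) lay within 1 SE of 0. An opposite direction thus rested on SRM, which did not pass the test given below. A positive difference was seen for 8 of the 12 genes with the motif and 9 of the 16 without it. Every resistant library lay above every control for 4 of the 12 and 5 of the 16, against 10.1% of all tested genes. A match of letters is a description and not a binding site.

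Values are FPKM, fragments scaled by transcript length and library size, so levels may be compared between genes. All 34 genes reached an FPKM of 1 in at least 3 libraries and were tested among 11307 genes. Their mean FPKM over the 6 libraries had a median of 26.7, against 11.4 for all tested genes. NPM1, a nucleolar chaperone, was the most abundant, with 1385, 1405 and 1297 FPKM in resistant 17, 18 and 28 and 1794, 1577 and 1169 FPKM in control 17, 18 and 28. UTP20, a scaffold of the small-subunit processome, was the least abundant, with 2.90, 5.63 and 3.11 FPKM in resistant libraries and 3.96, 4.14 and 4.42 FPKM in controls. Both groups overlapped for both genes.

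**Figure D1:**
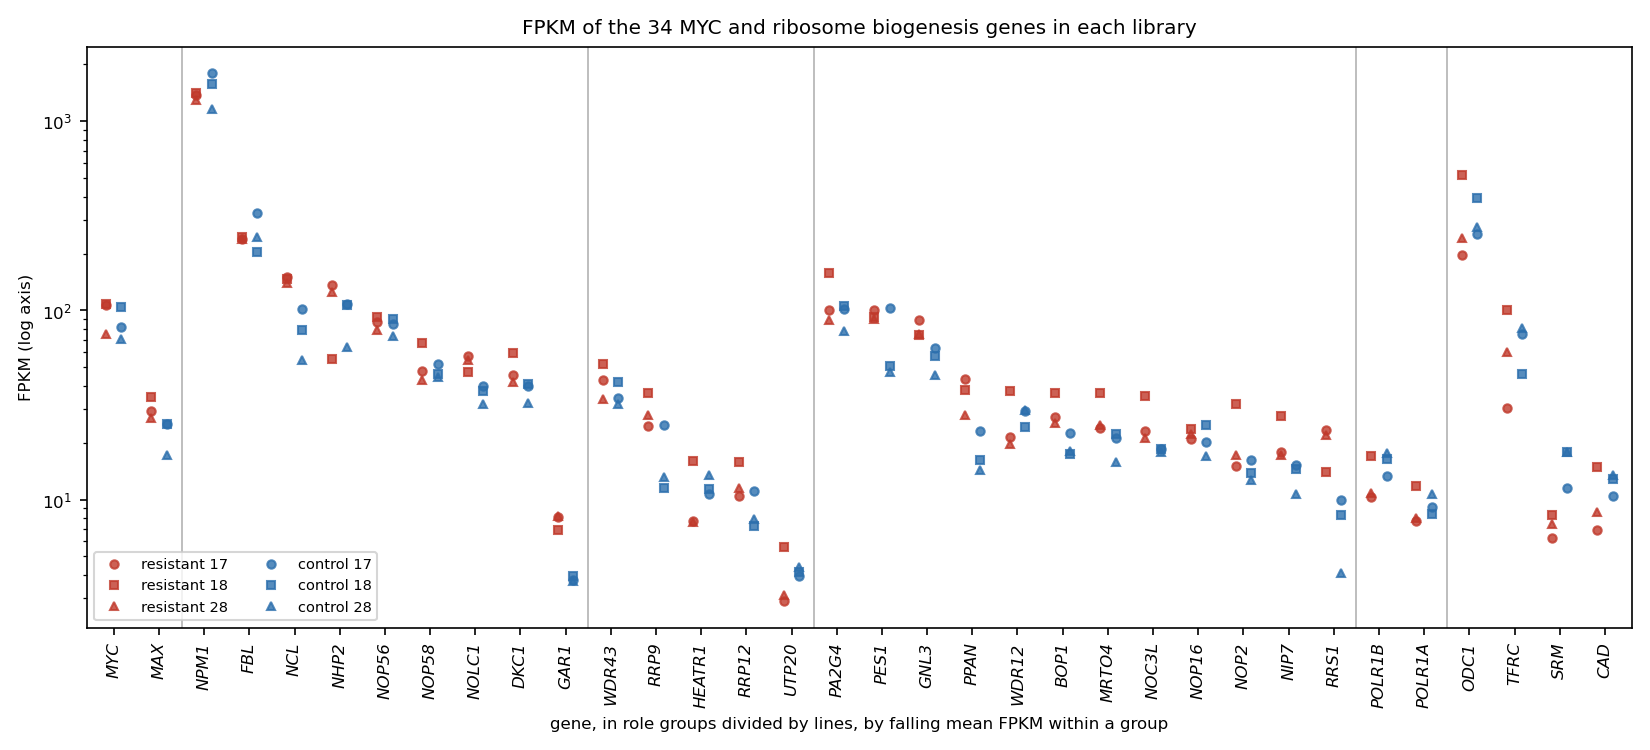
FPKM on a log axis for the 34 genes in 3 resistant (red) and 3 control (blue) libraries, 1 point per library with the pool given by the marker shape. Every resistant library lies above every control for 12 genes, among them GAR1, NCL, PPAN and RRS1, against 10.1% of all tested genes. For 1 gene, SRM, every resistant library lies below, against 11.1%. NPM1 is the most abundant gene.

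The libraries were alike in depth and identity, but 1 stood apart. The number of genes at an FPKM of 1 or more ran from 10936 to 11331, and relative depth, read from the steps of low values, ran from 1 in control 17 to 1.31 in resistant 28. All 12 B cell markers were found, at 4.67 to 1876 FPKM, and 13 of 16 markers of other cell types did not reach the minimum for testing. EPCAM and HBA1 were at 0 throughout, and the 16 markers summed to 303 to 373 FPKM in resistant libraries and 357 to 446 FPKM in controls, nearly all of it vimentin (VIM). Without VIM the sums were 5.06 to 7.03 FPKM in resistant libraries and 8.99 to 21.2 FPKM in controls. The myeloid marker CD33 averaged 1.12 ± 0.862 FPKM in resistant and 7.47 ± 5.68 FPKM in control libraries (SD, n = 3 each). The part of these levels in the results was not tested. Resistant 18 had an array weight of 0.162 in limma, against 1.03 to 1.93 in the other libraries, and differences beyond 1 on the log2 scale numbered 472 in pool 17, 1431 in pool 18 and 914 in pool 28.

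Of the 34 genes, 23 had a positive and 11 a negative mean log2 difference between resistant and control libraries, where 5838 of all 11307 tested genes had a positive one. The median was 0.24, against 0.01 for all tested genes. It was 0.13 without resistant 18, 0.13 without control 28 and 0.40 without resistant 28, and every other library left out kept it between 0.28 and 0.33. In limma's fit 0 of the 34 passed an adjusted p of 0.05, where 0.0354% of all tested genes did (0.0177% in each direction). At an unadjusted p under 0.05, 9 were higher and 1 lower, where 5.99% and 7.14% of all genes were. For 12 genes every resistant library lay above every control, against 10.1% of all genes, and for 1, SRM, every resistant library lay below, against 11.1%. In alternatives chosen after seeing the data, 14 genes lay above without pool 18, where 26.0% of all genes did with 2 libraries a group, and without resistant 18 alone 13 did, where 20.1% of all genes did. In all 3 pools 15 genes were higher and 1 lower, against 18.9% and 18.7% of all genes.

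**Figure D2:**
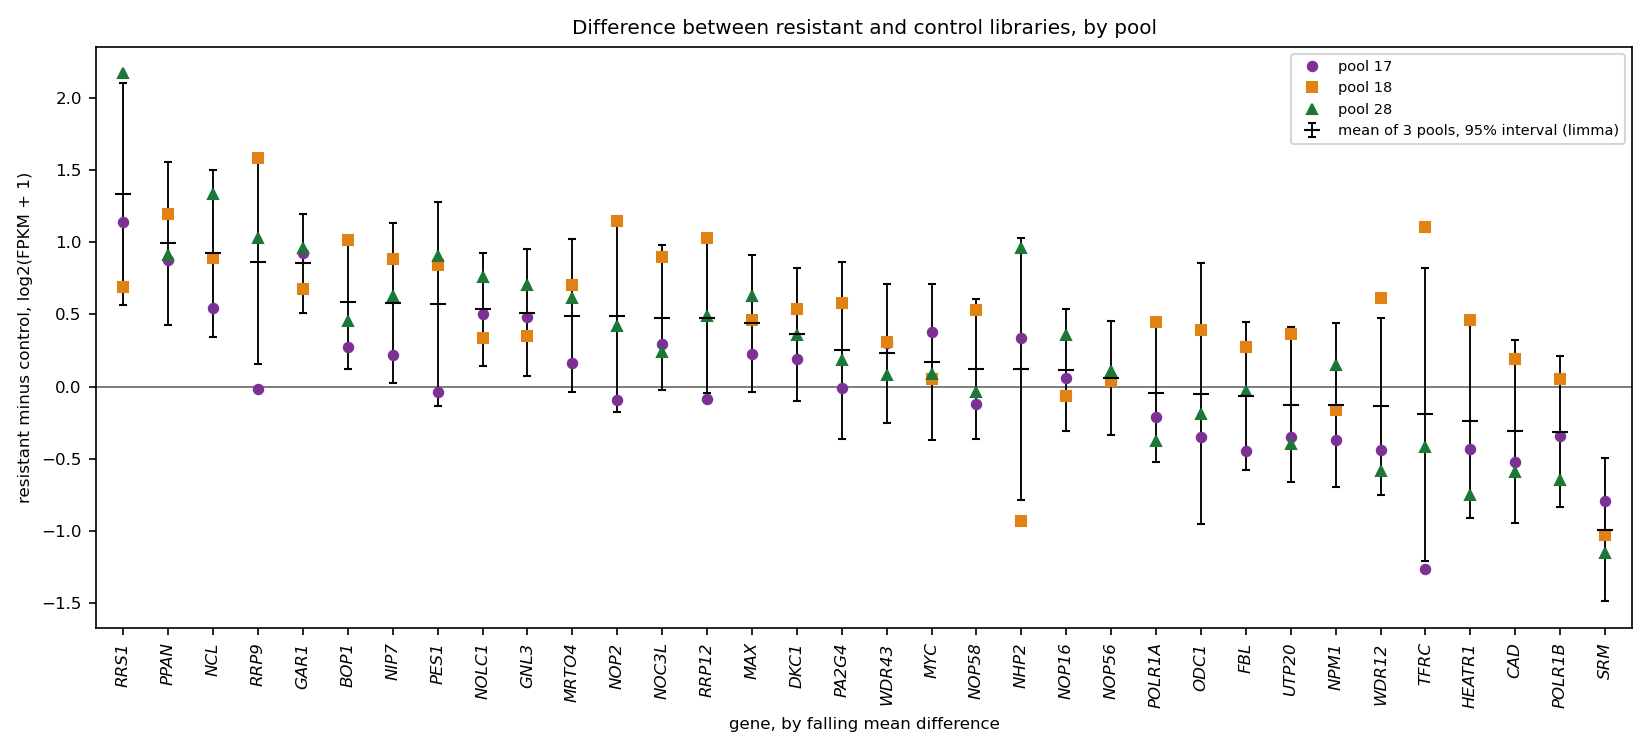
Log2 difference of each of the 34 genes, resistant minus control on log2(FPKM + 1), for pools 17, 18 and 28 (coloured markers), with limma's mean over the pools and its 95% interval in black. RRS1 has the highest mean (1.34) and SRM the lowest (-0.99). In all 3 pools 15 genes are higher and 1 is lower, against 18.9% and 18.7% of all tested genes. For the rest, such as TFRC and NHP2, the pools lie on opposite sides of 0.

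MYC itself did not separate the groups. It had 107, 108 and 75.0 FPKM in resistant 17, 18 and 28, and 82.2, 105 and 70.8 FPKM in control 17, 18 and 28. The groups overlapped, and the 28-numbered libraries were the lowest of each group. Its mean log2 difference was 0.17 (SE 0.23, limma adjusted p = 0.79), with a 95% interval of -0.37 to 0.71, and it was 0.38, 0.05 and 0.08 in pools 17, 18 and 28. Single libraries moved this mean: it was 0.04 without control 28, 0.08 without resistant 18, 0.09 without resistant 17, 0.32 without control 18 and 0.34 without resistant 28. MAX, its binding partner, had 29.4, 34.9 and 27.1 FPKM in resistant libraries and 25.0, 25.1 and 17.2 FPKM in controls. Every resistant library lay above every control, by a margin smaller than the spread within either group. MAX differed by 0.44 (SE 0.20, limma adjusted p = 0.41), and by 0.27 without control 28.

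Among the snoRNP proteins and nucleolar chaperones, GAR1 and NCL differed most. GAR1, a protein of the H/ACA snoRNPs that guide pseudouridine formation, had 8.06, 6.88 and 8.17 FPKM in resistant libraries, against 3.75, 3.94 and 3.70 FPKM in controls. Its groups were well apart, and it averaged 7.70 ± 0.712 FPKM in resistant and 3.80 ± 0.124 FPKM in control libraries (SD, n = 3 each), 2.03-fold higher. The log2 difference was 0.86 (SE 0.15), with the smallest limma adjusted p of the 34 genes, 0.158, which did not pass. NCL encodes nucleolin, an abundant nucleolar RNA-binding protein. It had 150, 147 and 139 FPKM in resistant libraries, which lay close together, and 102, 79.0 and 54.5 FPKM in controls, which did not. Nucleolin was thus 1.85-fold higher, with a log2 difference of 0.92 (SE 0.25, limma adjusted p = 0.216). The nucleolar chaperone gene NOLC1 had 57.2, 47.5 and 54.7 FPKM in resistant libraries and 40.1, 37.4 and 31.8 FPKM in controls, without overlap. It was 1.46-fold higher (log2 difference 0.53, SE 0.17, limma adjusted p = 0.265).

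The other members of this group overlapped between resistant and control libraries or differed less. DKC1, the pseudouridine synthase that GAR1 binds, averaged 49.0 ± 9.46 FPKM in resistant and 37.7 ± 4.64 FPKM in control libraries, without overlap (log2 difference 0.36, limma adjusted p = 0.473). NHP2, another H/ACA protein, had 136, 55.2 and 126 FPKM in resistant libraries and 108, 106 and 64.1 FPKM in controls. Resistant 18 was the lowest of its 6 libraries and resistant 17 the highest. NHP2 differed by 0.34, -0.93 and 0.96 in pools 17, 18 and 28, and its mean of 0.12 became -0.11 without resistant 17, -0.05 without resistant 28, -0.12 without control 28 and -0.30 without pool 28. The core proteins of box C/D snoRNPs, which guide methylation of ribosomal RNA, had mean log2 differences near 0. NOP56 differed by 0.06, with 0.04, 0.04 and 0.10 in pools 17, 18 and 28. The pools went opposite ways for NOP58, at -0.12, 0.53 and -0.04 (mean 0.12). They did so too for FBL, the methyltransferase fibrillarin, at -0.45, 0.27 and -0.03 (mean -0.07). NPM1 differed by -0.13 (limma adjusted p = 0.856), and by 0.10 under quantile normalization and 0.0045 without control 17. Reads of NPM1 can also stem from its many processed pseudogenes, which the deposited values do not separate.

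The large-subunit assembly factors had the highest median of the role groups. Of 12 genes, 11 had a positive difference, 7 had every resistant library above every control and 0 below, and 0 passed limma's adjusted threshold, with a median of 0.50. Over all tested genes 5838 of 11307 had a positive difference, 10.1% lay above and 11.1% below. RRS1, which brings the 5S ribosomal RNA particle into the large subunit, had 23.2, 14.0 and 21.9 FPKM in resistant libraries and 9.98, 8.29 and 4.08 FPKM in controls. Resistant 18 was the lowest of its group and still above every control. RRS1 was 2.65-fold higher, the largest fold of the 34 genes, with a log2 difference of 1.34 (SE 0.33, limma adjusted p = 0.197) and 1.14, 0.69 and 2.17 in pools 17, 18 and 28. PPAN, a factor for maturation of the large-subunit RNA, had 43.2, 38.2 and 28.0 FPKM in resistant libraries and 23.1, 16.1 and 14.4 FPKM in controls. It was 2.04-fold higher (log2 difference 0.99, SE 0.24, limma adjusted p = 0.197), and the pools were alike, at 0.88, 1.20 and 0.91. The readthrough transcript PPAN-P2RY11 shares its exons and was listed apart. With it added, the values were 43.5, 40.4 and 28.5 FPKM in resistant libraries and 26.3, 17.4 and 16.3 FPKM in controls, still without overlap.

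BOP1 and PES1 are partners in the PeBoW complex of the large subunit, with WDR12. BOP1 had 27.5, 36.6 and 25.2 FPKM in resistant libraries and 22.5, 17.5 and 18.1 FPKM in controls, without overlap (log2 difference 0.58, SE 0.20, limma adjusted p = 0.294). PES1 had 100, 92.1 and 89.8 FPKM in resistant libraries, but 103, 50.7 and 47.4 FPKM in controls, where control 17 was as high as any resistant library (log2 difference 0.57, limma adjusted p = 0.461). WDR12 differed the other way in pools 17 and 28 (-0.44 and -0.58) and by 0.61 in pool 18, so the 3 partners did not share 1 pattern.

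Several other factors of the large subunit had no overlap between groups. GNL3, or nucleostemin, a nucleolar GTP-binding protein, had 89.0, 74.0 and 75.3 FPKM in resistant libraries and 63.5, 57.7 and 45.8 FPKM in controls (log2 difference 0.51, SE 0.19, limma adjusted p = 0.321). NIP7, needed for processing of ribosomal RNA, had 17.7, 27.8 and 17.1 FPKM in resistant libraries and 15.1, 14.6 and 10.7 FPKM in controls (log2 difference 0.58, limma adjusted p = 0.365, and 0.36 without resistant 18). NOC3L, a nucleolar partner of early large-subunit particles, had 23.0, 35.2 and 21.2 FPKM in resistant libraries and 18.5, 18.4 and 17.8 FPKM in controls, where the controls were nearly equal and resistant 18 stood above all others (log2 difference 0.48, limma adjusted p = 0.395, and 0.26 without resistant 18). MRTO4, which prepares the ribosomal stalk, was the remaining gene without overlap, at 0.49. NOP2, a methyltransferase of the large-subunit RNA, had 15.1, 31.9 and 17.2 FPKM in resistant libraries and 16.2, 13.9 and 12.6 FPKM in controls. Its difference of 0.49 rested mainly on pool 18 (1.15), against -0.10 in pool 17 and 0.42 in pool 28, and it was 0.18 without resistant 18. NOP16, by contrast, was nearly level, with 21.0, 23.7 and 22.1 FPKM in resistant libraries and 20.2, 24.8 and 17.1 FPKM in controls. PA2G4, a growth-regulated nucleolar protein also called EBP1, differed by 0.25.

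The 5 genes of the small-subunit processome had a median of 0.23 and overlapped between groups in every case. RRP9, a protein of the U3 snoRNP, had 24.5, 36.6 and 28.0 FPKM in resistant libraries and 24.8, 11.5 and 13.2 FPKM in controls. Control 17 was as high as resistant 17, while the other pools differed by over 1 on the log2 scale (1.59 in pool 18 and 1.03 in pool 28). Over the pools RRP9 differed by 0.87 (SE 0.30, limma adjusted p = 0.30). RRP12 differed by 0.48, WDR43 by 0.23, UTP20 by -0.13 and HEATR1 by -0.24.

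Metabolic targets and RNA polymerase I subunits had negative mean differences, 6 of 6 genes, where 5469 of all 11307 tested genes had one. None of the 6 passed, where 0.0354% of all tested genes did. Only SRM had an unadjusted p under 0.05 in limma's fit, where 7.14% of all tested genes were lower at that level. In pool 18 alone, 3 of the 4 metabolic genes and 2 of the 2 subunit genes were higher. SRM, spermidine synthase of the polyamine pathway, had 6.24, 8.24 and 7.42 FPKM in resistant libraries, against 11.6, 17.9 and 17.8 FPKM in controls. Its groups did not overlap, and it averaged 7.30 ± 1.01 FPKM in resistant and 15.7 ± 3.61 FPKM in control libraries (SD, n = 3 each). This made SRM 2.16-fold lower in resistant libraries (log2 difference -0.99, SE 0.21, limma adjusted p = 0.179), with -0.79, -1.03 and -1.16 in pools 17, 18 and 28. ODC1, the enzyme 1 step earlier that makes putrescine, did not share this: it had 197, 520 and 241 FPKM in resistant libraries and 252, 396 and 275 FPKM in controls (log2 difference -0.05, SE 0.39). TFRC, the transferrin receptor for iron uptake, had 30.5, 100 and 60.3 FPKM in resistant libraries and 74.7, 46.1 and 81.2 FPKM in controls. Its pools went opposite ways, at -1.27, 1.11 and -0.42, and the mean of -0.19 became 0.25 without resistant 17 and 0.34 without pool 17. CAD, which starts pyrimidine synthesis, differed by -0.31, and the RNA polymerase I subunits POLR1B and POLR1A by -0.31 and -0.05. With trends in GC content and length removed, POLR1A differed by 0.07, 0.67 and -0.01 in pools 17, 18 and 28. Its negative mean then did not hold.

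The median difference of the 34 genes was not the same in each pool. Pool 17 gave 0.01, pool 18 gave 0.50 and pool 28 gave 0.30, against -0.03, 0.05 and -0.01 for all tested genes. A total of 17 genes were higher in pool 17, 30 in pool 18 and 23 in pool 28, where 47.2%, 53.4% and 49.3% of all genes were. By over 0.5 on the log2 scale, 5 genes were higher in pool 17, 17 in pool 18 and 12 in pool 28, against 9.94%, 21.3% and 15.7% of all genes, and 3, 2 and 5 were lower, against 9.30%, 19.7% and 15.8%. Across the 34 genes, the differences in pools 17 and 28 had a Pearson r of 0.82 (Spearman 0.79), those in pools 17 and 18 of 0.19 (0.19) and those in pools 18 and 28 of 0.38 (0.41). Genes are not independent replicates and no p is given. With 1 library per group within a pool, the differences between pools were not tested.

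The longest transcripts had one sign in pools 17 and 28 and the other in pool 18. Of the 34 genes, 7 have a transcript over 5000 nucleotides: POLR1A, UTP20, HEATR1, WDR12, CAD, TFRC and POLR1B, a set chosen after their values were seen. HEATR1, a large repeat protein of the processome, shows the pattern, with 7.66, 16.0 and 7.58 FPKM in resistant libraries and 10.7, 11.3 and 13.5 FPKM in controls. All 7 were lower in pools 17 and 28 (medians -0.43 and -0.58), and all 7 were higher in pool 18 (median 0.45). For the other 27 genes the medians were 0.19, 0.54 and 0.46. Over all genes, the 2577 tested ones above 5000 nucleotides showed medians of -0.14, 0.04 and -0.24. Of these, 67.2%, 46.2% and 70.6% were lower in pools 17, 18 and 28. Most long genes of any kind were thus lower in pools 17 and 28. The part of length in the results was not tested. With trends in GC content and length removed from each library, the medians of the 7 genes became -0.29, 0.41 and -0.30, and all but POLR1A in pool 17 and POLR1B in pool 18 kept their sign. UTP20 then had a mean of 0.02 over the pools, against -0.13 without this step.

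**Figure D3:**
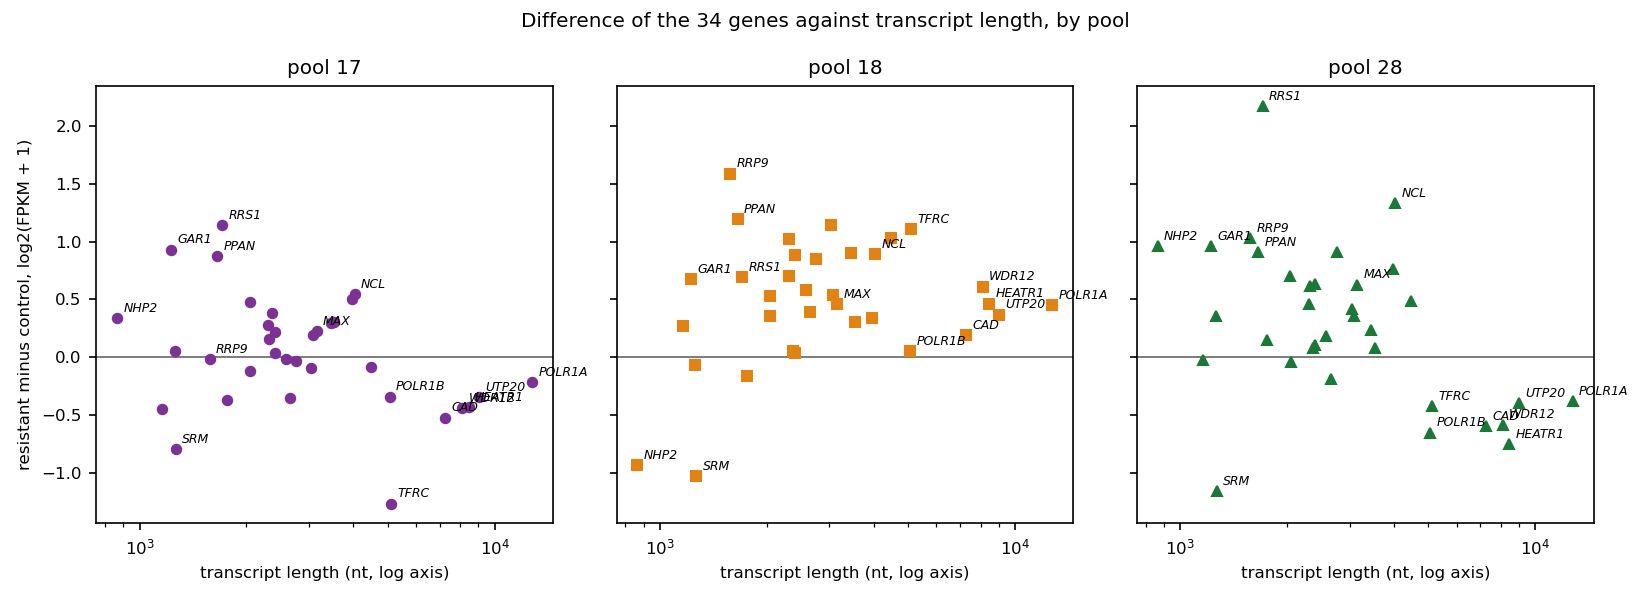
Log2 difference (resistant minus control, log2(FPKM + 1)) of the 34 genes against transcript length in nucleotides on a log axis, 1 panel per pool and 1 point per gene. The 7 genes over 5000 nucleotides lie below 0 in pools 17 and 28 and above 0 in pool 18.

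Other genes of ribosome production had the same order of pools, but this order was not particular to them. All tested genes had it too, with medians of -0.03, 0.05 and -0.01 in pools 17, 18 and 28. So did a list of 35 other genes regulated by MYC (-0.11, 0.47 and -0.03). Over all tested genes, 5838 of 11307 had a positive difference and 0.0354% passed. Among 45 tested genes of the small-subunit processome and 40S maturation, 37 had a positive difference and 0 passed in either direction. At an unadjusted p under 0.05, 4 were higher and 1 lower, near the 5.99% and 7.14% of all tested genes. PNO1, needed for 40S maturation, had 17.6, 16.1 and 18.3 FPKM in resistant libraries and 10.4, 8.79 and 8.05 FPKM in controls (log2 difference 0.87, SE 0.16, limma adjusted p = 0.158). RRP7A differed by 0.69 and MPHOSPH10 by 0.68, both without overlap. In this list 9 genes had every resistant library above every control, against 10.1% of all tested genes. Another 3 had every one below, against 11.1%: NOB1 (-0.49), BYSL (-0.37) and DIEXF (-0.30). Among 46 genes of 60S assembly and export, 36 had a positive difference and 0 passed, with 7 higher and 1 lower at an unadjusted p under 0.05, beside the same shares of all genes. BRIX1 (0.77), GLTSCR2 (0.72) and REXO4 (0.65) had the smallest p, and their groups did not overlap. In this second list 11 genes lay above every control and 1, SDAD1 (-0.47), below, beside the same 10.1% and 11.1% of all tested genes. The median was 0.20 for the first list and 0.25 for the second, and in pools 17, 18 and 28 it was -0.03, 0.51 and 0.16 for the first and -0.02, 0.57 and 0.28 for the second.

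Over all tested genes, 5838 of 11307 were positive and 0.0354% passed, with 5.99% higher and 7.14% lower at an unadjusted p under 0.05. Of 13 further genes of the RNA polymerase I machinery, 9 had a positive difference, 0 passed and 0 had an unadjusted p under 0.05. The ribosomal DNA factor UBTF differed by 0.42, TCOF1, or treacle, by 0.39 and the subunit gene ZNRD1 by -0.29. Of 12 further genes of the snoRNP core and its assembly, 7 had a positive difference and 0 passed. NOP10, the remaining H/ACA core protein beside GAR1, DKC1 and NHP2, went the other way from GAR1. It had 106, 70.8 and 129 FPKM in resistant libraries and 178, 185 and 161 FPKM in controls, without overlap (log2 difference -0.82, SE 0.25, limma adjusted p = 0.249). ZNHIT6 differed by 0.51 without overlap and NAF1 by -0.64 with overlap. In this list 2 genes lay above every control and 1, NOP10, below, against 10.1% and 11.1% of all tested genes. NAF1 was low, at 2.14, 0.761 and 2.30 FPKM in resistant libraries and 2.28, 3.51 and 3.65 FPKM in controls. Its pools 17, 18 and 28 differed by -0.07, -1.36 and -0.50.

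In the MYC and MAX network, 1 of 19 tested genes passed, downward, and 0 upward, where 0.0177% of all tested genes passed in each direction. That gene was BIN1, whose protein binds MYC, with 4.79, 4.21 and 4.09 FPKM in resistant libraries and 31.8, 27.3 and 30.3 FPKM in controls (log2 difference -2.52, SE 0.15, limma adjusted p = 0.00166). TRRAP, a cofactor that MYC recruits, differed by -0.98 and MLXIP by -0.69, both without overlap and neither passing (limma adjusted p = 0.209 and 0.197). In this network 5 genes lay below every control and 2 above, against 11.1% and 10.1% of all tested genes. MLXIP had only 0.593, 0.513 and 0.663 FPKM in resistant libraries and 1.32, 1.47 and 1.95 FPKM in controls. It met the minimum of 1 FPKM through the controls alone, which favours a negative difference without overlap. Of all 11307 tested genes, 5838 had a positive difference, with a median of 0.01. Of 35 other genes regulated by MYC, 17 had a positive difference, 0 passed and the median was -0.01. APEX1, a DNA repair endonuclease (1.12), GART, an enzyme of purine synthesis (0.54), and PHB2, a prohibitin (-0.36), had the smallest p.

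Proliferation genes, whose levels often go with MYC, had a different order of pools. Over 16 such genes, pools 17, 18 and 28 gave medians of -0.23, 0.99 and -0.60, so in pool 28 they were lower where the median of the 34 genes was 0.30. Over all 6 libraries, 8 of the 16 had a positive and 8 a negative mean difference, with a median of 0.06. TYMS, thymidylate synthase (-1.34), and the proliferation marker MKI67 (-0.91) were below all controls in every resistant library, resistant 18 included, and 0 of 16 passed. The share that lay below was 12.5%, near the 11.1% of all tested genes, of which 0.0354% passed. The mitotic kinase gene AURKB (0.62), the next by p, overlapped between groups. The part of proliferation in the differences of the 34 genes was not tested.

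**Figure D4:**
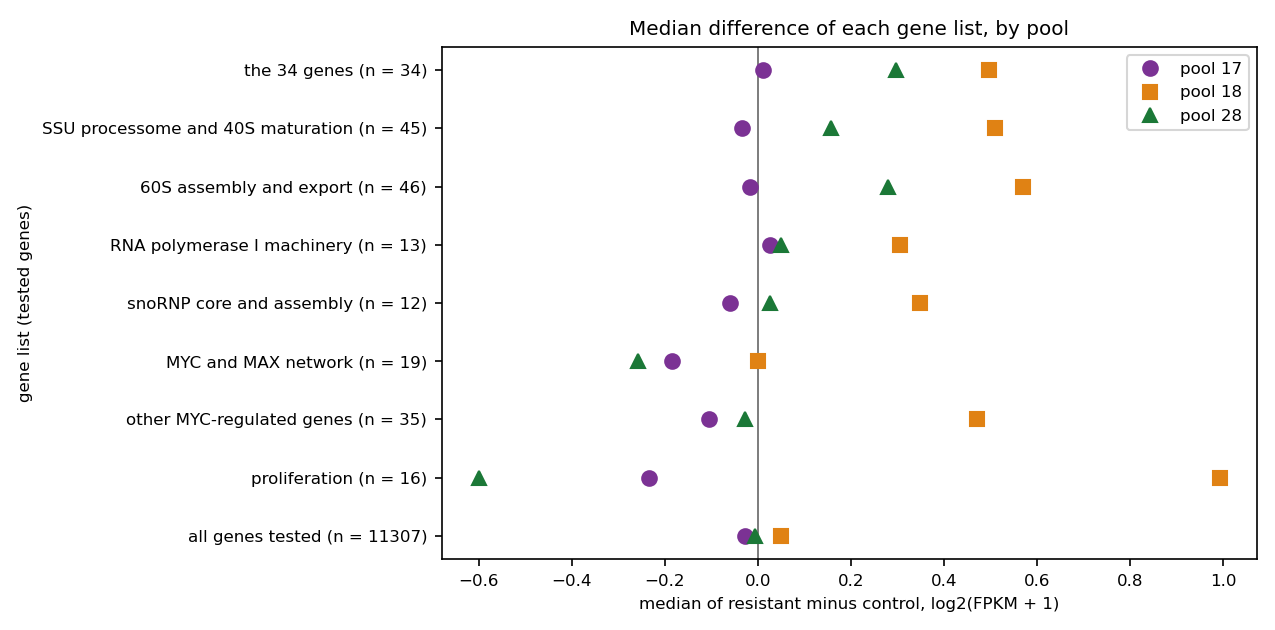
Median log2 difference (resistant minus control, log2(FPKM + 1)) of each gene list in pools 17, 18 and 28, with the number of tested genes in brackets. The 34 genes have medians of 0.01, 0.50 and 0.30, and the proliferation genes -0.23, 0.99 and -0.60.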

How the data were processed

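The authors deposited FPKM per gene symbol, 1 file per library, with commas as decimal marks. The submitters' processing notes name the build hg19 and the tools Cufflinks 2.2.1, TopHat2 2.0.4, DESeq2 and HTSeq 0.6.1. What each did, the annotation and the use of strand were not given in the sources used here, so reads of overlapping or antisense genes cannot be told apart. No counts were used and absolute depth is unknown, so no counting interval is given. The 11307 genes that reached 1 FPKM in 3 or more libraries were tested with limma 3.58.1 (R 4.3.3) on log2(FPKM + 1) (trend, two-sided, Benjamini-Hochberg over all tested genes, threshold 0.05), without a pool term. The pseudocount understates differences of genes with low FPKM. Errors are SDs over 3 libraries unless an SE is named. Libraries that share a pool number were read as pairs, since the series' design describes the pools as 3 pairs; over genes, the correlation of a pair's departures from its group means came to 0.148, 0.0892 and -0.0243 for pools 17, 18 and 28. The method was tested on simulated data with 200 changed genes, independent noise of equal size in every library and no pool effect. That setting does not cover a library that stands apart, such as resistant 18. The members, role groups and lists were chosen with earlier results of these data known. Genes given in full were MYC, MAX, any passing the threshold, up to 10 of smallest p that moved alike in all pools, the 4 highest and 4 lowest differences in pool 18, and the highest and lowest in level; the lists of ribosome production, MYC-related and proliferation genes name the 3 of smallest p, and marker lists are given by sums and ranges. Other genes were named after their values were seen. GC content and length came from the GENCODE v29 (GRCh38) transcript with the longest coding part, matched by symbol for 87.7% of tested genes. Promoter sequences are RefSeq's, GRCh38.p14. Alternatives were another pseudocount (0.1 or 5), no filter, a mean FPKM of at least 5, quantile normalization, median centring, array weights, a pool block, trends in GC and length removed (loess, span 0.5), and each library or pool left out.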

Additional observations from a re-analysis of the deposited data

How the results depend on the processing

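Of 19 alternatives, 1 brought any of the 34 genes past the threshold: with array weights, which gave resistant 18 little weight, 3 passed, GAR1 (0.91, limma adjusted p = 0.0235), RRS1 (1.5, 0.0363) and SRM (-1.13, 0.0352), where 301 of all tested genes passed in place of 4. Over all genes, 18 passed without pool 18, 2 with GC and length trends removed, and 3 to 13 with 1 library left out (8 without resistant 17, 13 without resistant 18). None (0) passed with GC and length trends removed together with the replicate block. With the replicate block alone 0 of the 34 and 3 of all genes passed, and it changed no call among the 34. Same-numbered libraries are pairs by the design text, though their deviations from the group means were little correlated (0.148, 0.0892 and -0.0243 for pools 17, 18 and 28). The median of the 34 genes was 0.13 (without resistant 18) to 0.40 (without resistant 28). In alternatives chosen after seeing the data, 11 of the 34 genes had every resistant library above every control under quantile normalization, and 11 with GC and length trends removed, in place of 12. Means near 0 changed sign. UTP20 was 0.024 with GC and length trends removed, with or without the replicate block, 0.0095 without pool 28 and -0.37 to 0.014 with 1 library left out, and it was not tested at a mean FPKM of at least 5. NPM1 was 0.10 under quantile normalization and -0.30 to 0.0045 with 1 library left out. NOP16 was -0.0049 without pool 28 and -0.0088 to 0.25 with 1 library left out. TFRC was 0.34 without pool 17 and -0.60 to 0.25 with 1 library left out. NHP2 was -0.30 without pool 28 and -0.12 to 0.53 with 1 library left out. The other 14 genes given in full kept their direction under all 19. Absolute depth is unknown, so how far counting error limits low genes such as GAR1 and UTP20 was not estimated.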

Other observations

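Several of the 34 genes carry snoRNA genes in their introns. GENCODE v29 places 21 snoRNAs with a row in the files inside 8 of the 34 genes on the same strand, and 20 of them were tested. Their FPKM are inflated by their short length and were read only within a gene. Of the 20, 14 had a negative and 6 a positive log2 difference (median -0.52), 5 had every resistant library below every control and 0 above, and 0 passed limma's adjusted threshold. Over all 247 tested snoRNA rows, 62.8% were negative, 13.8% lay below and the median was -0.25. These values were looked at after the data were seen.

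SNORD110, in NOP56, was listed at 2003, 5227 and 2289 FPKM in resistant 17, 18 and 28 and at 7168, 9452 and 11246 FPKM in control 17, 18 and 28 (log2 difference -1.66, SE 0.43, limma adjusted p = 0.209), while NOP56 itself differed by 0.06. SNORD70, in NOP58, was at 167, 321 and 134 FPKM in resistant libraries and at 355, 586 and 617 FPKM in controls (-1.38, SE 0.38, limma adjusted p = 0.22), and NOP58 differed by 0.12. Of the 8 snoRNAs in these hosts, 7 had negative differences and 3 had no overlap. In NCL, whose own difference was 0.92, SNORA75, SNORD20 and SNORD82 differed by 0.58, 0.22 and -0.55.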
